A study of Arabidopsis thaliana with 36 samples.

Results

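The comparison described here sets seedlings labelled tor beside the wild type Col-0 of Arabidopsis thaliana, both after 2 h with 15 mM glucose. It rests on 6 of the 36 mRNA sequencing libraries of the study, 3 per group, which the study calls biological replicates. Whole seedlings were used 4 days old, after growth in liquid Murashige and Skoog medium without glucose, so the seedlings of both groups had grown without added glucose before the treatment. Col-0 carried no transgene. The genotype of the tor group is labelled XVE-TOR RNAi and described as an inducible mutant: XVE is a chimeric transcription factor that oestradiol switches on, and the RNAi construct it drives is directed against TOR. Whether the line is 1 transformant, and when or with what it was induced, is not stated in the labels used here, and no group of Col-0 is labelled as having received an inducer. Libraries of the same genotypes held for 2 h without glucose, 3 of each, serve as the background measured the same way. Of 19382 genes with values in these 12 libraries, 19336 reached at least 1 RPM (reads per 1e+06 reads on listed genes) in at least 3 of them and were tested.

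TOR is a large protein kinase that promotes growth in plants, animals and fungi. In plants it works in a complex with RAPTOR and LST8, is active when sugar is plentiful, and drives the making of ribosomes, protein synthesis and the cell cycle, in part by phosphorylating S6 kinases and the E2F transcription factors of the cell cycle. SnRK1, an AMPK-type kinase active in starved cells, and autophagy, in which cells digest part of their own contents, are known to act in the opposite direction. The comparison asks which transcripts differ between the genotypes once glucose is supplied.

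The level of the targeted gene did not match a knockdown. TOR (AT1G50030) had 95.9, 95.4 and 97.0 RPM in the 3 Col-0 libraries with glucose and 182, 169 and 185 RPM in the 3 labelled tor. All tor-labelled libraries lay above all Col-0 libraries. The log2 difference, tor-labelled minus Col-0, was 0.88 ± 0.07 (adjusted p = 4e-07), and 0.73 ± 0.08 after median-of-ratios scaling. Here and below a log2 difference is given ± SE from limma on log2(RPM + 1), a scale that understates the change of low genes, and an RPM level is a mean ± SD of 3 libraries or the 3 values in replicate order. Without glucose the same gene was at 115 ± 5.17 RPM in Col-0 and 223 ± 0.597 RPM in the tor-labelled group. A count per gene cannot separate reads of the endogenous TOR transcript from reads of an RNAi construct that carries TOR sequence, and the protein was not measured. The libraries of this genotype are therefore called tor-labelled throughout, and every direction below is that of the label.

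Reads on listed genes numbered 20.0 to 21.9 M (1e+06) in Col-0 with glucose and 13.3 to 18.9 M in the tor-labelled libraries with glucose. The tor-labelled libraries differed among themselves. Genes of the chloroplast genome took 0.490%, 3.1% and 3.71% of RPM there and 0.340% to 0.700% in Col-0 with glucose, a difference of 1.96 percentage points between means of 2.43% ± 1.71 and 0.477% ± 0.195 (SD, n = 3; exact permutation test, two-sided, p = 0.2, where 3 against 3 libraries cannot go below 0.1). The 10 highest genes took 3.35%, 6.20% and 7.79% of RPM in the tor-labelled libraries. The median-of-ratios factor, which rescales RPM so that the typical gene is level, was 1.253 for tor-labelled replicate 1 and 0.966 to 1.059 for the other 5 libraries with glucose. That library stands apart from the others of its group on these 3 measures. Counts without it are given below for some results only. Others moved too, such as clock genes called higher, from 9 to 7, and heat shock genes called lower, from 7 to 9. In no list did leaving it out move a count of at least 4 called members by over 1.5 times.

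**Figure D1:**
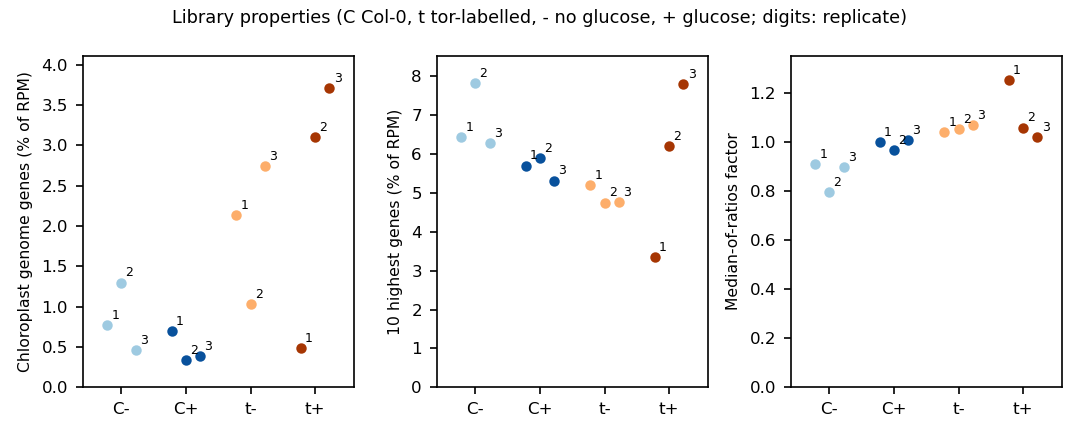
Library properties by group, 3 libraries each, digits giving the replicate number. Left, share of RPM on genes of the chloroplast genome in percent. Middle, share of RPM on the 10 highest genes in percent. Right, median-of-ratios factor on RPM. With glucose, tor-labelled replicate 1 has a chloroplast share of 0.490% where the other two have 3.1% and 3.71%, and a factor of 1.253.

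The genotypes differed widely with glucose present. A gene was called when its adjusted p in limma was below 0.05, and 11881 of the 19336 genes were called (61.4%). Of these 7214 were higher in the tor-labelled group (37.3% of genes tested) and 4667 lower (24.1%). At least a 2-fold difference was reached by 1892 called genes that were higher and 1554 that were lower, and at least a 4-fold difference by 242 and 203. Ranges that did not overlap were common: all 3 tor-labelled libraries lay above all 3 Col-0 libraries for 7696 genes (39.8%) and below them for 4995 (25.8%). The split between directions depended on the scaling. The median gene differed by 0.14 (log2) in RPM and by 0.00 after median-of-ratios scaling, which called 12264 genes (63.4%), 6008 higher (31.1%) and 6256 lower (32.4%), so that 49.0% of calls were higher in place of 60.7%. Calls made both ways kept their direction, with 6008 genes higher and 4666 lower under both scalings and no gene called in opposite directions. The scaling divides each library by 1 factor and moves all genes nearly alike, so opposite calls were unlikely from the start. Without tor-labelled replicate 1, 12073 genes were called, 6648 higher and 5425 lower. With so many genes called, a list of genes is read below against these shares and the median of 0.14.

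**Figure D2:**
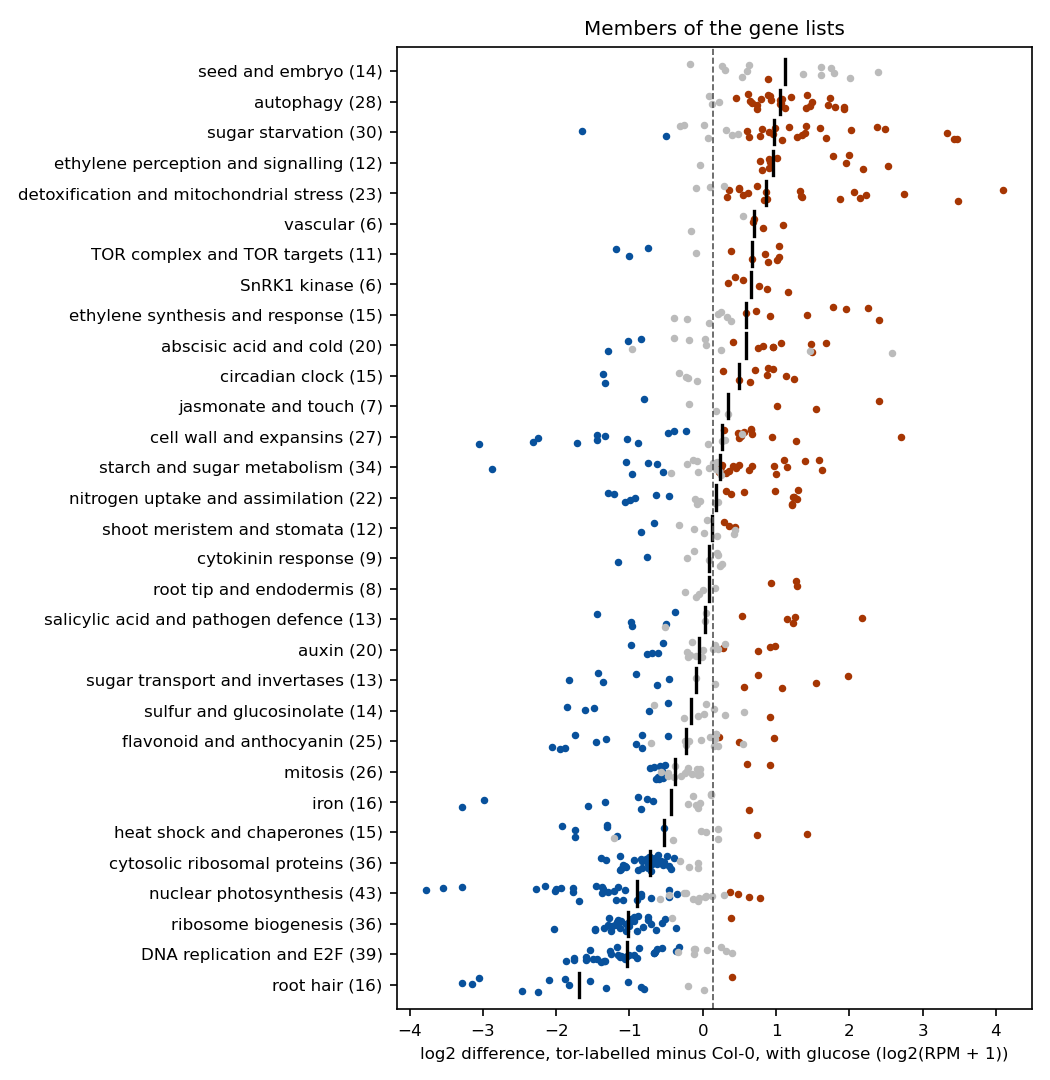
Log2 differences, tor-labelled minus Col-0 with glucose, on log2(RPM + 1), for the tested members of 31 gene lists (number of members in brackets). Each point is a gene, orange-brown where called higher, blue where called lower and grey where not called. Black bars are list medians and the dashed line is the median of all genes tested, 0.14. Root hair, DNA replication, ribosome biogenesis, photosynthesis and ribosomal protein lists lie lowest, and the autophagy, sugar starvation and ethylene signalling lists lie far to the right.

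Transcripts of the TOR complex were higher in the tor-labelled group, and transcripts of several TOR-linked growth genes were lower. Of 11 measured genes on this list, 7 were higher and 3 lower, under both scalings. RAPTOR1 (AT3G08850), the subunit that brings substrates to the kinase, had 139, 141 and 132 RPM in Col-0 and 276, 271 and 290.3 RPM in the tor-labelled libraries, a log2 difference of 1.02 ± 0.08 (adjusted p = 2.6e-07). LST8-1 (AT3G18140), the small subunit that stabilises the complex, had 38.3, 39.6 and 41.2 RPM and 97.2, 78.0 and 73.8 RPM (1.04 ± 0.12, adjusted p = 6.5e-06). Neither gene's libraries overlapped between the genotypes. RAPTOR2, the less expressed copy, was higher by 0.68 ± 0.09. On median-of-ratios values the differences of RAPTOR1 and LST8-1 were 0.86 ± 0.11 and 0.88 ± 0.09.

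The S6 kinase genes went in opposite directions. S6K1 (AT3G08730) had 135, 140.1 and 144 RPM in Col-0 and 92.2, 60.6 and 59.5 RPM in the tor-labelled libraries (-1.0 ± 0.16, adjusted p = 0.00016). S6K2 (AT3G08720), its neighbour on the chromosome and close homologue, had 20.1, 17.7 and 18.6 RPM and 51.6, 32.7 and 24.6 RPM (0.85 ± 0.21, adjusted p = 0.00358). The groups did not overlap for either gene, but the S6K2 values were spread widely within the tor-labelled group. The treatment of reads matching both copies is not given in the sources used here. Both genes for ribosomal protein S6, the substrate of S6 kinase, were lower: RPS6A had 647, 681 and 639 RPM in Col-0 and 319.6, 281 and 264 RPM in the tor-labelled libraries (-1.19 ± 0.12, adjusted p = 2.6e-06), and RPS6B differed by -0.75 ± 0.08. YAK1, a kinase that restrains growth downstream of TOR, was higher by 0.39 ± 0.09 and MRF1, a translation regulator, by 1.05 ± 0.17. TAP46, a phosphatase subunit, was at 34.8 ± 2.92 RPM in Col-0 and 33.2 ± 9.67 RPM in the tor-labelled group, a difference of -0.10 ± 0.17 that was not called (adjusted p = 0.642).

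**Figure D3:**
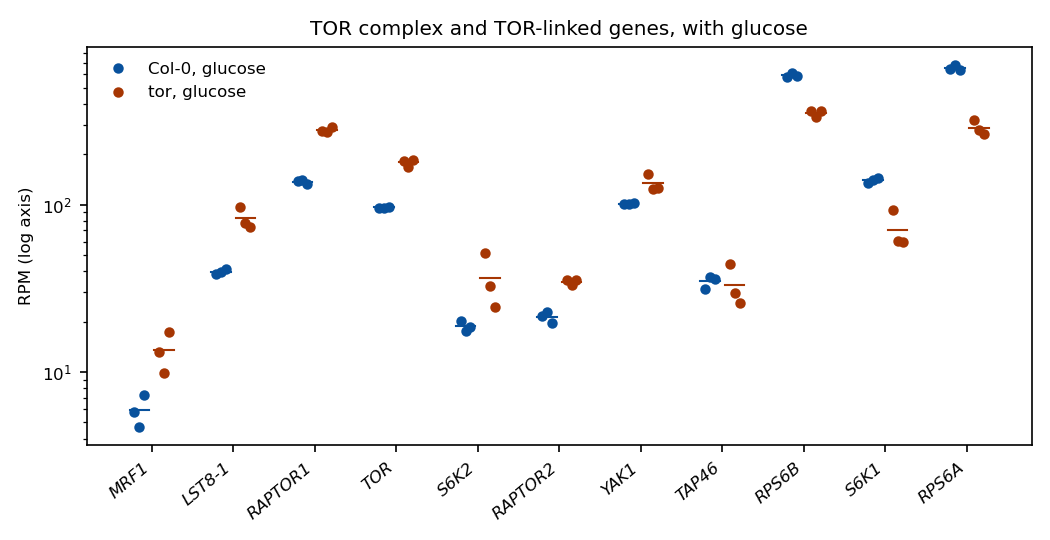
RPM (log axis) of the 11 measured genes of the TOR list in the 3 Col-0 libraries (blue) and the 3 tor-labelled libraries (brown) with glucose. Points are libraries and bars are means. TOR, RAPTOR1 and LST8-1 lie higher in every tor-labelled library, while S6K1, RPS6A and RPS6B lie lower in each, and TAP46 overlaps.

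Nearly all genes on the ribosome biogenesis list were lower. Of 36 ribosome biogenesis genes tested, 34 were lower in the tor-labelled group and 1 was higher, with a median difference of -1.03 against 0.14 for all genes. NOP5-1 (AT5G27120), a core protein of the particles that methylate ribosomal RNA, had 126, 135 and 139 RPM in Col-0 and 53.1, 27.1 and 22.3 RPM in the tor-labelled libraries. The groups did not overlap, and replicate 1 was the highest of the tor-labelled group. The log2 difference was -2.03 ± 0.28 (adjusted p = 4.4e-05). NOP56, a partner in the same particle, had 295, 309 and 316 RPM and 156, 97.6 and 88.3 RPM (-1.47 ± 0.21). NOP5-2, the second NOP5 gene, differed by -1.47 ± 0.27 and NAP57, the pseudouridine synthase of ribosomal RNA, by -1.35 ± 0.17. The member that was higher was REIL1, a cytosolic factor that matures the large subunit (0.38 ± 0.16); it was named after its value was seen, and on median-of-ratios values no member was called higher and 35 were called lower. The same 35 lower and 0 higher were counted without tor-labelled replicate 1.

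The listed cytosolic ribosomal protein genes were also lower, by less. Of 36 tested, 32 were lower and none was called higher, with a median of -0.71. RPL5A (AT3G25520), which carries the 5S RNA into the large subunit, had 738, 783 and 770.1 RPM in Col-0 and 402, 334 and 318 RPM in the tor-labelled libraries (-1.12 ± 0.12, adjusted p = 5.5e-06). RPL3B, a minor copy of the protein at the catalytic centre, had the largest difference on the list, with 29.5, 31.8 and 28.3 RPM and 12.3, 10.3 and 9.85 RPM (-1.39 ± 0.16). RPL23AB differed by -1.32 ± 0.14 and RPSAB by -1.13 ± 0.16. Most of these proteins are encoded by near-identical copies, so the split between copies is uncertain. The summed level of the 36 genes was 12370 to 12810 RPM in Col-0 and 7384 to 7945 RPM in the tor-labelled libraries, a sum that does not depend on how reads were shared among the listed copies.

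Genes of the DNA replication and E2F list were lower in 31 of 39 cases and higher in none, with a median of -1.04. The list, called the replication genes below, also holds the E2F factors themselves, their partners and D-type cyclins. MCM3 (AT5G46280), a subunit of the helicase that opens DNA at origins, had 36.6, 40.4 and 42.1 RPM in Col-0 and 11.1, 12.4 and 7.52 RPM in the tor-labelled libraries (-1.87 ± 0.23, adjusted p = 1.4e-05). RNR1 (AT2G21790), the large subunit of ribonucleotide reductase, which makes DNA building blocks, had 172, 185 and 181 RPM and 53.6, 64.1 and 41.9 RPM (-1.76 ± 0.19). In both genes the highest tor-labelled library lay below the lowest Col-0 library. MCM6 differed by -1.75 ± 0.27 and CDT1A, the factor that loads the helicase, by -1.60 ± 0.26. Members not called included E2FB, an activating E2F (0.40 ± 0.20), its partner DPB (0.32 ± 0.14) and E2FC, a repressing E2F (-0.34 ± 0.17), all 3 named after their values were seen. E2FC was called lower on median-of-ratios values (-0.49 ± 0.12) and without tor-labelled replicate 1 (-0.53), and E2FB and DPB were called higher without tor-labelled replicate 3 (0.58 and 0.46). Genes of mitosis differed less: 9 of 26 were lower and 2 higher, with a median of -0.38. Of the cyclins, CYCA1;1 differed by -0.72 ± 0.19 and CYCB1;2 by -0.63 ± 0.17. MYB3R1, a regulator of mitotic genes, was higher by 0.92 ± 0.12. On median-of-ratios values 12 of the 26 were lower and 2 higher, and 5 were lower without Col-0 replicate 1 or without tor-labelled replicate 3.

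Short sequence motifs known from growth genes were counted in the 250 bases before the annotated gene start of 19179 tested genes, in RefSeq's annotation of assembly TAIR10.1. The build used by the authors is not given in the sources used here, and coordinates below are those of TAIR10.1. On either strand, the site II core (TGGGCC or GGGCCC) was in 58.3% of promoters of the 36 ribosome biogenesis genes, in 41.7% of the 36 ribosomal protein genes, in 38.5% of the 39 replication genes and in 6.7% of the 30 sugar starvation genes, against 16.8% of all tested genes. The telo box core (AACCCTA) was in 13.9%, 25%, 7.7% and 10.0% of these lists against 5.3% of all. The E2F core (TTCCCGC) was in 30.8% of the replication genes, in none of the other lists and in 1.2% of all. The G-box (CACGTG) was in 8.3%, 5.6%, 5.1% and 10.0% against 7.3% of all. Over all genes called lower, 21.5% held the site II core and 6.7% the telo box core, and over all genes called higher, 13.2% and 3.7%. Among genes called and at least 4-fold lower the shares were 12.8% and 2.5%, both under those of all genes, and among genes at least 4-fold higher 6.3% and 1.9%. These are descriptions of the letters in these windows, without a test. TGGGCC and GGGCCC overlap within TGGGCCC, and a promoter that holds both was counted once.

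In each of these 4 lists, the called member with the largest difference that holds such a motif is shown, 5′ to 3′ on the strand of the gene and ending at the base before its start. Capitals mark the motifs. NOP5-1 (chr5:9540611-9540860, plus strand) holds 1 telo box core and 2 site II cores, RPL3B (chr1:22723153-22723402, minus strand) 1 site II core, MCM3 (chr5:18773707-18773956, minus strand) 3 site II cores and 1 E2F core, and SEN1 (chr4:16944628-16944877, plus strand), of the starvation list, 3 site II cores.
NOP5-1: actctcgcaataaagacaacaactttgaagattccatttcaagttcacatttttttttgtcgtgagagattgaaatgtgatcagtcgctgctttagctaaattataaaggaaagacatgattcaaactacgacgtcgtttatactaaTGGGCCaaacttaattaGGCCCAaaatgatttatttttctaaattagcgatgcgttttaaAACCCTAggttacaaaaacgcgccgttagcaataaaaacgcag
RPL3B: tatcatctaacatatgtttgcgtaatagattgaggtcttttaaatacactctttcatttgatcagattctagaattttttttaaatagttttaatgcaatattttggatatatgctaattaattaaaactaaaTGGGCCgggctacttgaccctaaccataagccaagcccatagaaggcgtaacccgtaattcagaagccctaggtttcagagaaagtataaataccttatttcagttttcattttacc
MCM3: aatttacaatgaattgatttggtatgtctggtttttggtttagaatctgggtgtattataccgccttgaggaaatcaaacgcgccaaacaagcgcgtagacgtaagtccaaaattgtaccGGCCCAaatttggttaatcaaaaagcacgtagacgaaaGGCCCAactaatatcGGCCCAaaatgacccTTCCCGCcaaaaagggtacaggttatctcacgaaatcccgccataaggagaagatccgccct
SEN1: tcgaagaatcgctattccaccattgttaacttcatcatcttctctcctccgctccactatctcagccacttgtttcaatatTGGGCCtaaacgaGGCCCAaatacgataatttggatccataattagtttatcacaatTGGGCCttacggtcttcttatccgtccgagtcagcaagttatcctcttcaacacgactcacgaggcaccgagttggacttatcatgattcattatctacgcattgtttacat
The first 3 of these genes were lower in the tor-labelled group and SEN1 was higher, so a site II core occurs upstream of genes of both directions.

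Genes that plants switch on when sugar runs out were higher in the tor-labelled group although glucose was present. Of 30 sugar starvation genes, 21 were higher and 2 lower, with a median of 0.98. SEN1 (AT4G35770), a classic marker of darkness and senescence, had 20.2, 24.5 and 29.9 RPM in Col-0 and 469, 161 and 301 RPM in the tor-labelled libraries. The groups did not overlap, and within the tor-labelled group replicate 1 was the highest and replicate 2 the lowest. The log2 difference was 3.47 ± 0.30 (adjusted p = 8.1e-07). SEN5 (AT3G15450), a starvation-induced gene, had 2.35, 1.59 and 2.6 RPM and 33.9, 38.1 and 27.5 RPM (3.43 ± 0.18, adjusted p = 2.6e-08). MCCA (AT1G03090), a subunit of an enzyme of leucine breakdown, had 6.25, 5.89 and 7.49 RPM and 89.1, 62.8 and 73.8 RPM (3.33 ± 0.13, adjusted p = 2.5e-09). DRM1, a dormancy-associated gene, was higher by 2.49 ± 0.23.

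These levels lay below those of seedlings held without glucose. Without glucose SEN5 was at 1102 ± 275 RPM in Col-0 and 1533 ± 103 RPM in the tor-labelled group, against 33.2 ± 5.33 RPM in the tor-labelled group with glucose. MCCA was at 381 ± 50.8, 364 ± 17.8 and 75.2 ± 13.2 RPM in the same order. The summed level of the 30 genes was 519.7 to 662.8 RPM in Col-0 with glucose, 1409 to 1822 RPM in the tor-labelled libraries with glucose, 10860 to 14490 RPM in Col-0 without glucose and 9715 to 12200 RPM in the tor-labelled libraries without glucose. The summed values of the genotypes overlapped without glucose and were separate with it. The members called lower with glucose were BGAL4, a beta-galactosidase (-1.64 ± 0.18), and DIN9, a mannose phosphate isomerase (-0.49 ± 0.11), both named after their values were seen.

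**Figure D4:**
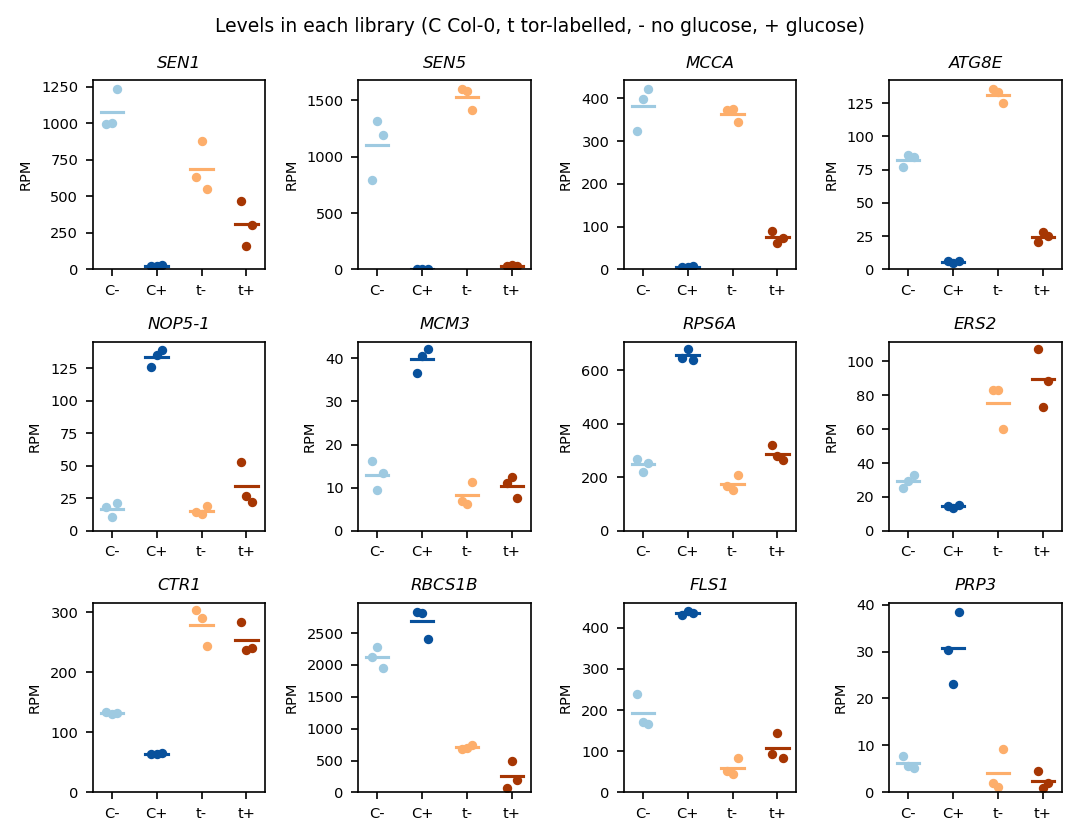
RPM in each of 12 libraries for 12 genes, with C for Col-0, t for tor-labelled, - for no glucose and + for glucose; points are libraries, bars are means and every axis starts at 0. SEN1, MCCA and ATG8E are higher in tor-labelled than in Col-0 libraries with glucose. NOP5-1, MCM3, RPS6A, RBCS1B, FLS1 and PRP3 are lower, and ERS2 and CTR1 are higher.

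Autophagy genes were higher almost throughout the list. Of 28 tested, 25 were higher and none lower, with a median of 1.05, and both counts were the same under median-of-ratios scaling and without tor-labelled replicate 1. ATG8E (AT2G45170) encodes a ubiquitin-like protein that is attached to the growing autophagosome membrane. It had 6.10, 4.86 and 6.12 RPM in Col-0 and 20.8, 28.3 and 24.8 RPM in the tor-labelled libraries (1.93 ± 0.12, adjusted p = 6.3e-08). ATG8A had 27.2, 24.4 and 23.7 RPM and 94.7, 100.5 and 99.5 RPM (1.93 ± 0.08), ATG8F 16.5, 16.1 and 17.3 RPM and 57.3, 61.5 and 62.3 RPM (1.8 ± 0.10). In these 3 genes no tor-labelled library reached down to the Col-0 range. ATG18A, which acts in membrane supply, differed by 1.73 ± 0.12. The SnRK1 kinase genes were higher in 6 of 6 cases, with a median of 0.66, and in 4 of 6 on median-of-ratios values. KIN10 (AT3G01090), the main catalytic subunit, had 50.1, 49.5 and 53.7 RPM and 119, 109 and 119 RPM (1.16 ± 0.08, adjusted p = 1.3e-07). KIN11, the second catalytic subunit, differed by 0.88 ± 0.09, and the regulatory subunits AKINBETA1 and AKINBETA3 by 0.77 ± 0.15 and 0.56 ± 0.13.

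Ethylene signalling genes were higher as well. Ethylene is perceived by a family of receptors that keep the kinase CTR1 active in the absence of the hormone, and EBF proteins remove the transcription factor EIN3. Of 12 genes of perception and signalling, 11 were higher and none lower, with a median of 0.96. The counts were the same on median-of-ratios values, with a median of 0.80, and without tor-labelled replicate 1. ERS2 (AT1G04310), a receptor, had 14.5, 13.5 and 15.3 RPM in Col-0 and 107, 72.9 and 88.4 RPM in the tor-labelled libraries (2.54 ± 0.15, adjusted p = 6.3e-08). ETR2, another receptor, had 23.2, 21.3 and 24.9 RPM and 127, 90.9 and 110.1 RPM (2.18 ± 0.14). CTR1 (AT5G03730) had 64.3, 63.6 and 65.1 RPM and 284, 237 and 241 RPM (1.96 ± 0.09, adjusted p = 1.4e-08), and RTE1, a protein that acts with the receptor ETR1, differed by 2.00 ± 0.11. No library of one genotype reached the range of the other in these 4 genes. The receptor gene EIN4 was the member not called (-0.04 ± 0.14, named after its value was seen).

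In the list of ethylene synthesis and response, 8 of 15 genes were higher and none lower, with a median of 0.59. ACO4 (AT1G05010), an ACC oxidase that makes ethylene from its precursor, had 163, 171 and 181 RPM in Col-0 and 1281, 729 and 809.8 RPM in the tor-labelled libraries (2.4 ± 0.18, adjusted p = 3e-07). Replicate 1 was the highest of the tor-labelled values. ARL and ARGOS, growth genes that ethylene raises, differed by 2.26 ± 0.23 and 1.96 ± 0.18, and the transcription factor gene HB52 by 1.78 ± 0.25. On median-of-ratios values 8 were higher and 1 lower.

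Nuclear genes of photosynthesis were mostly lower: 28 of 43 were lower and 4 higher, with a median of -0.90. The largest differences were in carbon fixation. RBCS1B (AT5G38430), a small-subunit gene of Rubisco, had 2834, 2813 and 2405 RPM in Col-0 and 75.8, 500.4 and 194 RPM in the tor-labelled libraries. The tor-labelled values were all lower and differed strongly among themselves, replicate 1 being the lowest. The log2 difference was -3.77 ± 0.45 (adjusted p = 1.1e-05). RBCS2B, a neighbouring copy, had 3119, 2976 and 2892 RPM and 338, 1218 and 575 RPM (-2.27 ± 0.32), and the division of reads among such copies is uncertain. FBA1, a plastid aldolase, had 1018, 1148 and 1142 RPM and 41.9, 211 and 156 RPM (-3.29 ± 0.41). CP12-2, a regulator of the Calvin cycle, had 123, 136 and 152 RPM and 6.57, 18.2 and 10.3 RPM (-3.54 ± 0.26, adjusted p = 2.3e-07). The 4 members called higher, LHCA1, LHCA2, PSAL and PSBR, belong to the photosystems and differed by 0.37 to 0.78; they were named after their values were seen. On median-of-ratios values 1 member of the list was higher and 31 lower, and 2 were higher without Col-0 replicate 3 or without tor-labelled replicate 3.

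The organelle genomes went the other way. Of 104 chloroplast genome genes, 67 were higher and none lower, with a median of 1.52, and of 34 mitochondrial genome genes 31 were higher and none lower, with a median of 1.28. These counts rest on libraries whose chloroplast share differed within the tor-labelled group, from 0.490% to 3.71%. Without tor-labelled replicate 1, 94 and 34 were higher. The mitochondrial genome share moved with it, at 0.267%, 1.63% and 2.63% in tor-labelled replicates 1, 2 and 3. The part of RNA selection in these values was not tested.

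Starch and sugar metabolism held members of both directions, 17 higher and 6 lower of 34, with a median of 0.24, and 10 higher and 9 lower on median-of-ratios values. BAM3 (AT4G17090), the main beta-amylase of leaf starch breakdown, had 455, 586 and 564 RPM in Col-0 and 84.4, 67.9 and 64.6 RPM in the tor-labelled libraries (-2.87 ± 0.18, adjusted p = 6.7e-08). GPT2 (AT1G61800), a glucose-phosphate carrier of the plastid envelope that sugar is known to raise, had 134, 103 and 80.3 RPM and 418, 293 and 274 RPM (1.63 ± 0.41, adjusted p = 0.00381). It was at 1.93 ± 1.74 RPM in Col-0 and 2.63 ± 2.18 RPM in the tor-labelled group without glucose. SUS3, a sucrose synthase, was higher by 1.58 ± 0.19 and the hexokinase-like gene HKL1 by 1.40 ± 0.10. HXK1 (AT4G29130), the hexokinase that senses glucose, had 86.7, 88.5 and 84.0 RPM in Col-0 and 96.8, 95.3 and 93.4 RPM in the tor-labelled libraries. Its libraries did not overlap, yet the difference of 0.14 ± 0.08 was not called (adjusted p = 0.146) and was -0.02 ± 0.09 on median-of-ratios values. Among 13 sugar transporter and invertase genes 5 were higher and 6 lower, against 37.3% and 24.1% of all genes tested. The sugar transporter gene ERD6 was higher by 1.98 ± 0.12 and the phloem sucrose loader gene SUC2 by 1.55 ± 0.19, while the sucrose efflux gene SWEET12 was lower (-1.82 ± 0.10), as was the vacuolar invertase gene VI2 (-1.43 ± 0.08).

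Flavonoid genes called lower outnumbered those called higher, 10 to 3 of 25, with a median of -0.23. The lower ones included early steps of flavonol synthesis. TT4 (AT5G13930), chalcone synthase, had 1422, 1500.1 and 1362 RPM in Col-0 and 288, 520.0 and 334 RPM in the tor-labelled libraries (-1.95 ± 0.21, adjusted p = 5.4e-06). FLS1, flavonol synthase, had 432, 440.2 and 435 RPM and 93.5, 145 and 83.8 RPM (-2.05 ± 0.23), TT5, chalcone isomerase, differed by -1.88 ± 0.15, and MYB11, a regulator of flavonol genes, by -1.75 ± 0.15. DFR and LDOX, which act in the branch to anthocyanins, were not called, at 0.21 ± 0.44 and 0.15 ± 0.42, both named after their values were seen.

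Mineral nutrient genes moved in parts, where over all genes tested 37.3% were called higher and 24.1% lower. Of 22 nitrogen genes 10 were higher and 7 lower, with GLN1.3, a glutamine synthetase, higher by 1.24 ± 0.08 and AMT1;2, an ammonium transporter, lower (-1.29 ± 0.15). Of 14 sulfur and glucosinolate genes 5 were lower and 1 higher. APR2, the key reductase of sulfate assimilation, had 153, 150.3 and 129.6 RPM in Col-0 and 42.0, 46.2 and 52.9 RPM in the tor-labelled libraries (-1.60 ± 0.11), and the glucosinolate regulators MYB34 and MYB28 differed by -1.86 ± 0.21 and -1.48 ± 0.19. Of 16 iron genes 8 were lower and 1 higher, the last not on median-of-ratios values. IRT1 (AT4G19690), the root iron importer, had 9.50, 8.98 and 7.81 RPM in Col-0 and no read in any tor-labelled library with glucose, so it was at least 46.4-fold lower, taking 3 reads per library as the floor for a count of 0. This floor covers counting error only. NAS4, a synthase of the metal chelator nicotianamine, had 20.3, 18.3 and 20.3 RPM and 1.32, 1.94 and 1.58 RPM (-2.99 ± 0.23).

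Stress and defence genes showed contrasts between families. Of 23 genes of detoxification and mitochondrial stress, 20 were higher and none lower, with a median of 0.87, and 16 were higher on median-of-ratios values. CYP81D8 (AT4G37370), a cytochrome P450 that responds to many chemicals, had 2.00, 1.31 and 1.00 RPM in Col-0 and 46.4, 36 and 38.9 RPM in the tor-labelled libraries (4.1 ± 0.22, adjusted p = 3.1e-08). GSTU24, a glutathione transferase, had 8.90, 8.93 and 10.3 RPM and 163, 67.2 and 139 RPM (3.49 ± 0.24), and OPR1, an oxophytodienoate reductase, 27.7, 28.3 and 29.4 RPM and 259.9, 139.5 and 212 RPM (2.75 ± 0.19). In both, replicate 2 was the lowest tor-labelled library and still lay above Col-0. An inducing chemical cannot be told apart from the genotype here, since no inducer is given in the labels used and no Col-0 group is labelled as treated with one.

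Heat shock and chaperone genes were lower in 7 of 15 cases and higher in 2, with a median of -0.53. BIP2 (AT5G42020), the main chaperone of the endoplasmic reticulum, had 419, 412 and 408 RPM in Col-0 and 141, 96.8 and 92.7 RPM in the tor-labelled libraries (-1.92 ± 0.19, adjusted p = 2.2e-06); BIP2 and BIP1 are near-identical. ROF2, a heat-induced immunophilin, differed by -1.74 ± 0.20, and the heat factor gene HSFA2 was higher by 1.43 ± 0.16. HSP70 (AT3G12580) had 214, 239 and 199 RPM and 179, 128 and 188 RPM, and its difference of -0.41 ± 0.18 was not called (adjusted p = 0.0604) but was called lower on median-of-ratios values (-0.57 ± 0.19). Of 20 abscisic acid and cold genes 9 were higher and 3 lower (5 lower without tor-labelled replicate 3), with ABF3, a transcription factor of abscisic acid signalling, at 1.68 ± 0.12 and the cold gene COR47 at -1.29 ± 0.21. Of 13 salicylic acid and pathogen genes 5 were higher and 5 lower, with the related factors WRKY40 and WRKY18 at 2.17 ± 0.20 and -1.44 ± 0.32. Of 12 jasmonate and touch entries 7 were tested, of which 3 were higher and 1 lower. The higher ones included the calmodulin-like touch gene TCH3 (2.4 ± 0.24) and AOS, an enzyme of jasmonate synthesis (1.54 ± 0.12). PDF1.2, VSP1, VSP2, LOX2 and THI2.1 lacked values and were not tested. Over all genes tested, 37.3% were called higher and 24.1% lower. The abscisic acid, salicylic acid and jasmonate counts are to be read beside these shares.

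Wall, hormone and clock genes differed member by member. Their counts are to be read beside the 37.3% of all genes tested that were called higher and the 24.1% called lower. Of 27 cell wall genes 11 were higher and 12 lower. EXPA1 (AT1G69530), an expansin that loosens growing walls, had 89.0, 80.2 and 97.7 RPM in Col-0 and 18.6, 7.98 and 6.24 RPM in the tor-labelled libraries (-3.05 ± 0.66, adjusted p = 0.00143), and EXPA6 differed by -2.31 ± 0.22. XTH15, a xyloglucan-modifying enzyme, had 8.5, 9.12 and 8.45 RPM and 56.7, 61.6 and 68.3 RPM (2.70 ± 0.15). Of 20 auxin genes 4 were higher and 5 lower, the efflux carrier genes PIN7 and PIN4 by 0.99 ± 0.13 and 0.92 ± 0.08 and the influx carrier gene LAX3 by -0.98 ± 0.16. Of 9 cytokinin response genes 2 were lower and none higher, ARR5 (-1.15 ± 0.22) and ARR8 (-0.76 ± 0.30). ARR8 was called without tor-labelled replicate 1 but not when any of the other 5 libraries was left out (adjusted p = 0.071 to 0.187), so that ARR5 alone was then lower. Without tor-labelled replicate 1 the list had 2 lower and 1 higher. Of 15 clock genes 9 were higher and 2 lower: the evening genes GI and LUX differed by 1.24 ± 0.11 and 1.13 ± 0.11, and the morning genes LHY and RVE1 by -1.34 ± 0.17 and -1.37 ± 0.15. On median-of-ratios values 8 clock genes were higher and 5 lower.

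Marker genes of cell types were read as a check of what the whole seedlings held. In bulk samples, fewer cells of a type and less RNA per cell cannot be told apart. Root hair markers were lower in 13 of 16 cases and higher in 1, with a median of -1.68. Their summed level was 161.8 to 239.6 RPM in Col-0 with glucose and 80.97 to 109.7 RPM in the tor-labelled libraries with glucose, while without glucose it was 85.75 to 98.39 RPM in Col-0 and 82.87 to 131.8 RPM in the tor-labelled libraries. PRP3 (AT3G62680), a proline-rich wall protein of root hairs, had 30.4, 23.2 and 38.5 RPM in Col-0 and 4.61, 0.907 and 2.03 RPM in the tor-labelled libraries with glucose (-3.28 ± 0.48, adjusted p = 6.7e-05). PRP1 differed by -3.16 ± 0.45 and the peroxidase gene RHS19 by -3.05 ± 0.56. Of 6 vascular markers 4 were higher and none lower, XCP2, a xylem protease, by 1.1 ± 0.19, and 2 were higher without tor-labelled replicate 2. Their summed level was 62.8 to 68.7 RPM in Col-0 and 96.2 to 131 RPM in the tor-labelled libraries. Of 8 root tip and endodermis markers 3 were higher and none lower, a share near the 37.3% of all genes called higher, and 5 were not called. The higher ones included CASP1 and CASP2, which build the Casparian strip of the endodermis, by 1.29 ± 0.12 and 0.93 ± 0.14. The list median was 0.09, and on median-of-ratios values it was -0.06 with 3 higher and 1 lower. The summed level of the list was 149.6 to 158.5 RPM in Col-0 and 176.3 to 195.4 RPM in the tor-labelled libraries. Of 12 shoot meristem and stomata markers 3 were higher and 2 lower, and on median-of-ratios values none and 3, with summed levels of 316.5 to 339.8 RPM and 309.6 to 412.8 RPM that overlap. Seed and embryo markers had a median of 1.13 with 1 of 14 called, against 5 higher in edgeR and 4 higher and 1 lower in DESeq2. They summed to 543.5 to 1053 RPM in Col-0 and 577.8 to 1583 RPM in the tor-labelled libraries, ranges that overlap. The part of organ or stage composition in the results above was not tested.

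The largest differences lay mostly outside these lists. AT5G44260, which RefSeq annotates as a CCCH-type zinc finger protein, had 1.8, 0.795 and 1.05 RPM in Col-0 and 202, 230.2 and 234 RPM in the tor-labelled libraries (6.68 ± 0.23, adjusted p = 6.8e-10). J8, a chaperone of the DnaJ family, had 8.75, 7.85 and 12.2 RPM and 296, 204 and 191 RPM (4.44 ± 0.19). LUP2, a triterpene synthase, was higher by 4.15 ± 0.17 and AT2G34930, annotated as a leucine-rich-repeat protein of the disease resistance family, by 4.69 ± 0.12. Among the falls, CYP706A6 (AT4G12320), a cytochrome P450, had 106, 113 and 109 RPM in Col-0 and 0.0530, 0.907 and 0.301 RPM in the tor-labelled libraries (-6.32 ± 0.21, adjusted p = 6.2e-10). FBA5, an aldolase gene, had 76.5, 87.5 and 90.8 RPM and 0.901, 6.35 and 3.31 RPM (-4.45 ± 0.35), and RGF9, a root meristem growth factor peptide gene, 28.0, 27.3 and 29.1 RPM and 1.32, 2.30 and 0.827 RPM (-3.59 ± 0.29). HSP17.6II, a small heat shock protein, differed by -3.99 ± 0.40 and the pectin lyase-like gene AT1G60590 by -3.90 ± 0.23. The highest value of CYP706A6, FBA5 and RGF9 in a tor-labelled library was 6.35 RPM, of FBA5 in replicate 2.

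A small set of genes was near 0 in all 6 Col-0 libraries and present in all 6 tor-labelled libraries. Taking below 0.5 RPM and at least 5 RPM as the limits, chosen after the values were seen, 8 genes met this and none met the reverse. AT1G33320, annotated as a pyridoxal phosphate-dependent transferase, had 0.25, 0.281 and 0.320 RPM in Col-0 and 160.1, 116 and 129 RPM in the tor-labelled libraries with glucose (6.72 ± 0.15), the largest rise of all genes eligible for naming. AT1G33300 and AT1G71470, both uncharacterized, had no read in any Col-0 library with glucose, and 18.5, 21.1 and 17.2 RPM and 31.4, 36.2 and 28.6 RPM in the tor-labelled libraries, at least 133-fold and 225-fold higher against a floor of 3 reads per library. AT1G56710, a pectin lyase-like gene, had 38.2 ± 6.28 RPM in the tor-labelled group with glucose and 78.3 ± 7.29 RPM without it. A difference between the lines in genotype other than the RNAi construct cannot be told apart from the construct, since 1 tor-labelled genotype was used.

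The same comparison in seedlings held without glucose gives the background of the genotype difference. There 10704 genes were called (55.4%), 7802 higher (40.3%) and 2902 lower (15%), a split of 72.9% higher that became 47.8% on median-of-ratios values. With both conditions called, 5655 genes were higher in each and 2258 lower in each, against 3639 and 3950 on median-of-ratios values. A further 1452 genes were called higher and 2176 lower with glucose and were not called without it. On median-of-ratios values these numbered 2154 and 2148, so the excess of lower genes depended on the scaling. In opposite directions, 107 genes were higher with glucose and lower without it, and 233 the reverse, against 215 and 158 on median-of-ratios values, so which direction held more genes turned with the scaling. The difference of the genotype effect between the conditions was tested directly as an interaction. It was called for 3361 genes (17.4%), 1200 more positive with glucose (6.21%) and 2161 more negative (11.2%), and 2724 of the 3361 were also called with glucose. Median-of-ratios scaling moved the share of more positive calls from 35.7% to 50.9%, with 4008 calls in all. Leaving out tor-labelled replicate 1 with glucose raised the calls to 5009, of which 3632 were more negative. Leaving out Col-0 replicate 2 with glucose lowered them to 2156.

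The lists divided by this test. All lists share the 12 libraries, and the interaction uses the Col-0 and tor-labelled libraries of both conditions. Of the 30 starvation genes, 23 had a more positive difference with glucose and none a more negative one, with a median interaction of 1.39, while without glucose 5 were higher and 11 lower in the tor-labelled group (3 and 19 on median-of-ratios values). Of the 36 ribosome biogenesis genes 28 were more negative with glucose and none more positive, and without glucose the median difference was -0.03 with 4 higher and 3 lower. On median-of-ratios values the same 36 genes had a median of -0.31 without glucose, with 1 higher and 14 lower, and 28 were again more negative with glucose. The replication genes had 21 of 39 more negative, the ribosomal protein genes 16 of 36, the root hair markers 10 of 16 and the heat shock genes 7 of 15, with none more positive in any of these. Leaving out 1 library at a time, the starvation count stayed between 21 and 25 and the ribosome biogenesis count between 22 and 33. The replication count fell to 8 without Col-0 replicate 1 with glucose or tor-labelled replicate 3 without glucose, and reached 28 without tor-labelled replicate 1 with glucose. The ribosomal protein count ran from 8 to 21, with the lowest value without Col-0 replicate 2 with glucose or tor-labelled replicate 3 without glucose. The root hair count ran from 5 to 11, lowest without Col-0 replicate 3 of either condition. In edgeR the more negative genes numbered 13 for replication and 10 for ribosomal proteins, and in DESeq2 20 and 12. For ethylene signalling 8 of 12 were more positive. Of the 28 autophagy genes, 22 were called higher in both conditions (15 on median-of-ratios values). Of the 43 photosynthesis genes 22 were called lower in both (24 on median-of-ratios values). Over all 19336 genes, 5655 were higher in both and 2258 lower in both, against 3639 and 3950 on median-of-ratios values. In the interaction 9 autophagy genes were more positive, and 1 photosynthesis gene was more positive and 8 more negative. The autophagy count was 15 in edgeR and 16 in DESeq2. The 8 photosynthesis genes were 3 on median-of-ratios values and 3 to 15 leaving out 1 library, the highest without tor-labelled replicate 2 with glucose. For the TOR gene itself the interaction was -0.07 ± 0.10 (adjusted p = 0.673) and for KIN10 0.16 ± 0.11 (adjusted p = 0.353), neither called.

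**Figure D5:**
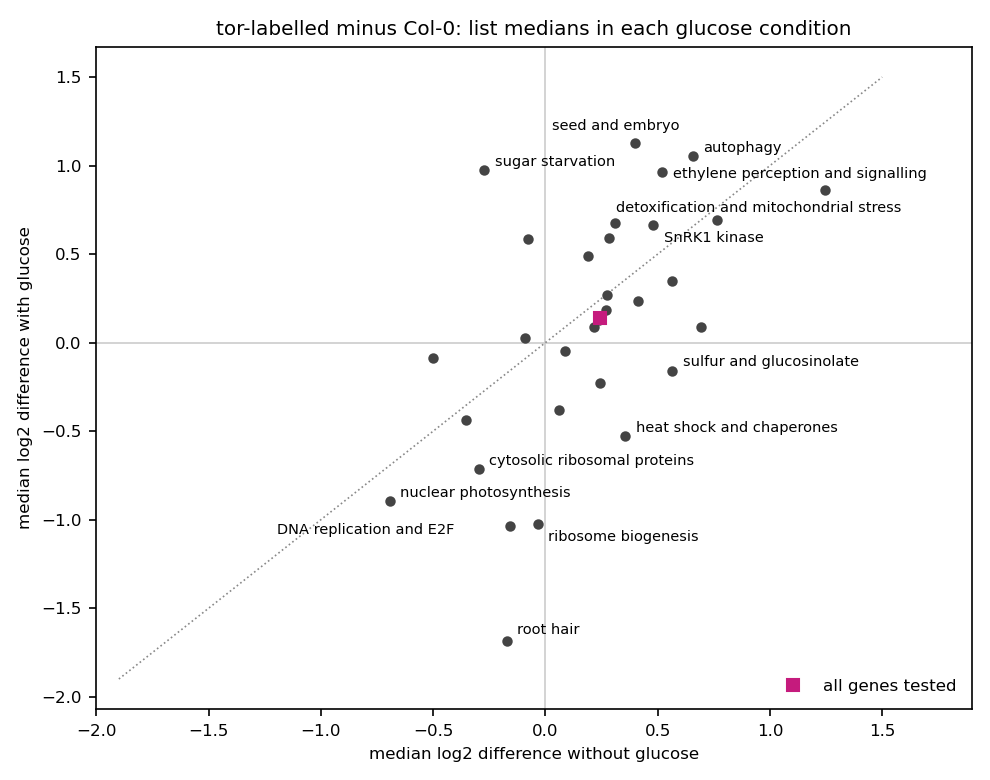
Median log2 difference, tor-labelled minus Col-0, of each of 31 gene lists without glucose (horizontal axis) and with glucose (vertical axis). Points are lists, the square is the median of all genes tested and the dotted line marks equal differences. The starvation list is at -0.27 without and 0.98 with glucose, the ribosome biogenesis list at -0.03 and -1.03, and the root hair list at -0.17 and -1.68, all in RPM. On median-of-ratios values these lists are at -0.55 and 0.83, -0.31 and -1.18, and -0.32 and -1.78.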

How the data were processed

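Values are RPM (reads per 1e+06 reads on listed genes) per gene as deposited by the authors in 1 table of 36 libraries and 33619 genes, and the submitters' processing notes name TopHat and HTSeq, without versions. The genome build and the handling of reads matching several genes are not given in the sources used here. In the 12 libraries used, every RPM value was a whole multiple of the value of 1 read (100% of values within a tolerance of 0.02 reads), which gave depths of 13.3 to 21.9 M reads on listed genes and reads for the count tests.

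The 12 libraries of both glucose conditions were fitted together on log2(RPM + 1), with 1 mean per group, in limma 3.58.1 (lmFit, eBayes with a mean-variance trend, R 4.3.3). Tests were two-sided, with Benjamini-Hochberg adjustment over 19336 genes, and a gene was called below an adjusted p of 0.05. P-values measure the spread within groups, pooled over these 12 libraries. The spread was unequal: log2(RPM + 1) values correlated at 0.968 to 0.979 among tor-labelled libraries with glucose. Among Col-0 libraries with glucose they correlated at 0.994 to 0.996. Genes had at least 1 RPM in at least 3 libraries. Median-of-ratios values are RPM divided by each library's median ratio to the gene's geometric mean. The fits were run on simulated data in which few genes changed, as many up as down, with 1 spread per gene for all groups. A difference as wide as the one here, or a spread that is unequal between groups, was not simulated.

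The members and the 31 gene lists were chosen with earlier results of these data known. Of 675 list entries, all matched RefSeq by gene code. Entries without values in all 12 libraries were not tested. This left 7 of 12 jasmonate and touch entries, 13 of 20 for salicylic acid and pathogens, and 14 of 19 for sulfur and glucosinolates. The genes named are every measured member of the TOR list, called genes among the 12 largest rises and 12 largest falls that reached a mean of 5 RPM in 1 group and whose libraries did not overlap, up to 4 called members per list with the largest difference (or the 2 highest where none was called), the 6 largest interactions each way, and HXK1. A selection is printed, and others are marked as named after their values were seen.

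Alternatives were median-of-ratios scaling, RPM over nuclear genes, no filter or 5 RPM, a pseudocount of 0.25, a 2-fold minimum, DESeq2 1.42.0, edgeR 4.0.16 (TMM factors), the replicate number as a block, fits of 1 glucose condition alone, and leaving out each library. Promoter windows were read from the TAIR10.1 sequence and annotation of RefSeq with Python 3.11.15. Of the tested genes, 19183 matched that annotation.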

Additional observations from a re-analysis of the deposited data

Results flagged for a closer look

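For 63 of the genes named above the genotype difference itself differed between the glucose conditions (limma interaction, adjusted p below 0.05 over all genes tested, 3 libraries per group). The values below are log2 interactions, the tor-labelled minus Col-0 difference with glucose less the same difference without glucose. Each was picked out because a difference called with glucose was not of the same size without it. No explanation was weighed. Of all genes tested, 17.4% passed the interaction test. The genes named above were picked in part for a large interaction or a large difference with glucose, and a flag also required a call with glucose. How many were flagged can therefore not be set against that share.

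Among genes of starvation, sugar transport, SnRK1 and autophagy the interactions were SEN1 4.15, SEN5 2.92, MCCA 3.39, DRM1 1.1, BGAL4 1.51, DIN9 1.15, AKINBETA1 1.03, ATG8A 0.56, ATG8E 1.27, ATG8F 1.09, ERD6 1.02, SUC2 1.14 and VI2 0.55, all more positive with glucose, and SWEET12 -0.92, more negative. Among ethylene, stress and hormone genes the more positive ones were ERS2 1.21, ETR2 0.79, CTR1 0.89, RTE1 1.04, ACO4 0.86, ARGOS 1.17, ABF3 1.9, CYP81D8 1.32, OPR1 1.51, WRKY40 1.22, TCH3 1.53 and RVE1 0.87, and AOS -0.84 was more negative.

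Among TOR-list, ribosome and replication genes the interaction was positive for MRF1 1.39 and negative for the others, at RAPTOR2 -0.48, RPS6A -0.68, RPS6B -0.52, NOP5-1 -1.96, NOP5-2 -1.35, NOP56 -1.51, NAP57 -1.27, RPL3B -0.76, RPL23AB -0.99, RPSAB -0.79, MCM3 -1.25, MCM6 -1.30 and RNR1 -1.50. Chaperone genes gave BIP2 -1.41, ROF2 -1.66 and HSP17.6II -3.73, and photosynthesis genes RBCS1B -2.20 and LHCA1 0.73. Nutrient and secondary metabolism genes gave APR2 -0.91, MYB34 -1.25, MYB28 -1.06, MYB11 -1.05, GLN1.3 -0.50, NAS4 -1.11, IRT1 -2.89, LUP2 -0.90 and CYP706A6 -1.86. The interaction of IRT1 is a fitted value, and a group at 0 reads makes it depend on the pseudocount. CYP706A6, near 0 in the tor-labelled libraries with glucose, has the same limit. Root hair genes gave PRP1 -3.34, PRP3 -2.49 and RHS19 -2.61. Of the remaining genes, AT5G44260 4.59 and J8 3.20 were more positive, and AT1G56710 -1.0, AT1G60590 -1.35 and AT1G71470 -0.64 more negative with glucose. AT1G71470 had no read in any Col-0 library, and AT1G56710 was at 0.128 and 0.111 RPM in Col-0 without and with glucose. Their interactions therefore follow the tor-labelled levels without and with glucose, 50.3 and 32.1 RPM for AT1G71470 and 78.3 and 38.2 RPM for AT1G56710.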

How the results depend on the processing

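All alternatives below were computed over all genes tested, and the cause of a change was not tested unless stated. Asking also for at least a 2-fold difference left 3446 genes with glucose (1892 higher, 1554 lower), 2270 without it (1526 and 744) and 1079 in the interaction (363 and 716), since this adds a condition. The counts with glucose moved by less than 1.5 times under every other alternative run: 12326 genes were called in edgeR (6310 higher, 6016 lower) and 12219 in DESeq2 (6113 and 6106), both on whole reads recovered from RPM. Without glucose the split moved from 7802 higher and 2902 lower to 4819 and 5269 on median-of-ratios values, 4556 and 5452 in edgeR, and 4741 and 5296 in DESeq2. The count of more positive interactions rose from 1200 to 2042, 2248 and 2199 under the same 3 settings. Leaving out each library in turn, the calls with glucose ran from 10551 to 12073, those of the interaction from 2156 to 5009, its more positive calls from 787 to 1377 and its more negative calls from 1369 to 3632. The difference in chloroplast share ran from 1.32 to 2.93 percentage points.

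With the replicate number as a block, 11720 genes were called with glucose (7136 higher, 4584 lower) and 3067 in the interaction. Deviations of same-numbered libraries of the genotypes with glucose correlated at -0.33, 0.03 and -0.21, and those of differently numbered ones at -0.16 to 0.31. These values show no pairing by number, but 3 libraries per group are too few to settle it. Of 127 genes named, 118 kept their call, or lack of one, with glucose under all alternatives but the 2-fold minimum, and none reversed. The 9 others were ARR8, DPB, E2FB, E2FC, HSP70, LHCA2, PSAL, PSBR and REIL1. Their calls were gained or lost under 1 or more of scaling, the count tests, the block, the libraries fitted or the library left out. Called with glucose in the main fit were also 118 of the 127 genes, a different set. Of these called genes, 96 differed by at least 2-fold and 22, TOR among them, by less. Depth limits the genes near 0: 3 reads in a library correspond to 0.137 to 0.226 RPM.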
